A study of Arabidopsis thaliana with 4 samples.

Results

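LTP1 to LTP7 are 7 genes of Arabidopsis thaliana that encode type 1 nonspecific lipid transfer proteins. They were taken by locus identifier from a table of 32833 genes, and they were chosen on the measured values of these same libraries, because LTP5 was much higher in the mutant. Their levels in both genotypes are therefore given as descriptions, with fold changes and standard errors (SE) and without a test. Callus, the proliferating tissue that auxin and cytokinin induce on plant explants, had formed on hypocotyl pieces of about 1 cm. The pieces came from seedlings kept in darkness for 9 days and lay for 5 to 6 days, a stage named CIM6d in the labels, on callus induction medium (CIM) with 11 µM 2,4-Dichlorophenoxyacetic acid (a synthetic auxin), 0.2 µM kinetin (a cytokinin) and 2% sucrose, in constant light at 22 °C. The groups were wild type plants of the accession Col-0 and the wox5-1 wox7-1 double mutant, which carries mutant alleles of WOX5 and WOX7, homeobox transcription factors of the WUSCHEL-related family, and each had 2 RNA sequencing libraries from about 100 pooled calli. Whether these were grown as independent cultures is unstated in the labels, and each p-value therefore reflects a spread between libraries that could be technical.

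The libraries held 30041268 and 35975440 gene-assigned reads in the wild type against 35078420 and 40008661 in the mutant. Levels are given as CPM, the reads of a gene scaled to a common library total with TMM factors, which correct for differences in library composition. A gene was called when its adjusted p in edgeR's quasi-likelihood test, fitted over all 18716 genes with enough reads, was below 0.05, and 2223 of them (11.9%) were. WOX5 had 4378 and 5268 reads in the wild type against 9 and 33 in the mutant (mean log2 difference -8.00 ± 0.42 SE, edgeR adjusted p = 0.00986), and the value was -9.13 without mutant replicate 2 and -7.41 without mutant replicate 1. WOX7 had 449 and 473 against 790 and 864 reads (log2 change 0.68 ± 0.11 SE, adjusted p = 0.0335), which as a whole-gene count is no check of its mutant allele, and leaving out any single library ended that call. All 9 callus and founder cell markers had reads in the wild type, with summed levels of 1085 and 1005 CPM there and 1059 and 944 CPM in the mutant.

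Nonspecific lipid transfer proteins are small, secreted, basic proteins. Disulphide bridges between conserved cysteines hold a bundle of helices around a hydrophobic tunnel, which binds fatty acids and other lipids in vitro. Many are made in the epidermis and lie in the cell wall, where they have been linked to the assembly of the cuticle and of suberin, and several genes of the family respond to abscisic acid, drought, cold or pathogens. In the RefSeq annotation LTP1 is a cell wall protein of the epidermal layer that binds calmodulin, LTP2 is the nearest relative of LTP1, and LTP4 is a gene strongly raised by abscisic acid. LTP3 is known as a gene that the transcription factor MYB96 activates under drought and freezing, and LTP5 from work on pollen tubes, whose growth a gain-of-function allele disturbs.

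All 7 proteins deduced from the annotated coding sequences held the cysteine motif of the family, with 8 cysteines placed in the order single, single, adjacent, CXC, single and single. The proteins were 112 (LTP4) to 122 (LTP7) residues long. In LTP1 to LTP6 the first spacings were 9, 13 and 19 residues, while LTP7 had 15 in the second and in the last spacing, where the other 6 had 13. The stretch of 72 coding bases from the adjacent cysteines to the CXC motif is shown for each gene because it lies in exon 1, has the same length in all 7 and shows how far their reads can be told apart. Capitals mark the codons of its 4 cysteines, and the lines run 5′ to 3′ on the coding strand.
LTP1: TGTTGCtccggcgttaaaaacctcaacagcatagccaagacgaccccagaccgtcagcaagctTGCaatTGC
LTP2: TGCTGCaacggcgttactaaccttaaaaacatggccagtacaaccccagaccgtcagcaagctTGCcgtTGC
LTP3: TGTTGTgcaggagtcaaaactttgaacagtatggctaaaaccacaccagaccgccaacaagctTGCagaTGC
LTP4: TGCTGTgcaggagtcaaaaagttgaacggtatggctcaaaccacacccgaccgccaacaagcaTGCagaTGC
LTP5: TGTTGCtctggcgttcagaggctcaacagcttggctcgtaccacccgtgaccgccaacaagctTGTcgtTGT
LTP6: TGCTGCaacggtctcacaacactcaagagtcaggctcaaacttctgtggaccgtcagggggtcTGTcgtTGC
LTP7: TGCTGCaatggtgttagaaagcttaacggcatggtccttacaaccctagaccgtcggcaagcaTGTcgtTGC

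In the TAIR10.1 assembly these stretches lie at chr2:16130574-16130645 (LTP1, plus strand), chr2:16128637-16128708 (LTP2, plus strand), chr5:23929201-23929272 (LTP3, plus strand), chr5:23925551-23925622 (LTP4, minus strand), chr3:19138897-19138968 (LTP5, minus strand), chr3:2664575-2664646 (LTP6, minus strand) and chr2:6519050-6519121 (LTP7, plus strand). LTP3 and LTP4 differed at 7 of the 72 bases, LTP1 and LTP2 at 14, and LTP5 at 20 (from LTP1) to 32 (from LTP6). Over the whole protein, LTP3 and LTP4 were the closest, with 94 of 112 aligned residues identical (83.9%), followed by LTP1 and LTP2 (68.6%). The nearest relative of LTP5 among the 7 was LTP1 (61.0%), and LTP6 was the most distant member, at 37.5% to 46.7% identity to the others. The longest run of identical transcript bases was 44 between LTP3 and LTP4 and 40 between LTP1 and LTP2. No window of 50 bases of any member's transcript occurred in another member or elsewhere in the nuclear genome, so that reads of at least this length match a single gene unless they carry errors. The sources used here give neither the read length nor the treatment of reads that fit several genes.

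**Figure D1:**
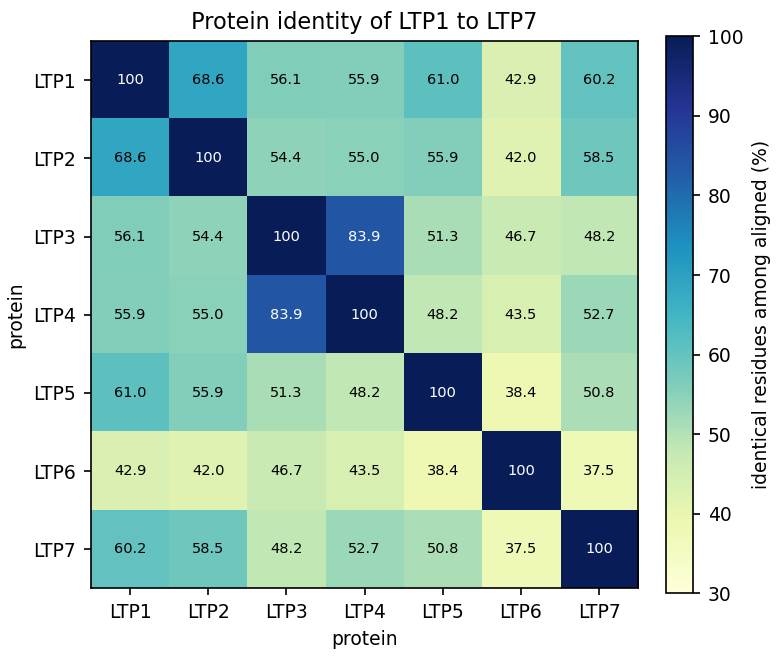
Protein identity between LTP1 to LTP7, as the percent of aligned residues that are identical (colour and number, rows and columns are the 7 proteins). The LTP3 and LTP4 cell stands highest at 83.9%, and the LTP6 row holds the lowest values, from 37.5% to 46.7%.

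Read levels of the 7 genes spanned more than 4 orders of magnitude in CPM, and LTP1, LTP2 and LTP3 were the highest in every library, also per kilobase of exon. Together these 3 took 99.75% and 99.76% of the reads of the 7 genes in the wild type against 99.70% and 99.34% in the mutant. All 7 together made up 0.653% and 0.533% of assigned reads in the wild type against 0.749% and 0.625% in the mutant, so the groups overlapped in the family total. LTP4 to LTP7 were minor members in every library, and the large relative differences between genotypes lay among these. Levels were measured in whole callus, where fewer cells of a type and less RNA per cell cannot be told apart.

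LTP2 (AT2G38530, chr2:16128176-16129399) had 122757 and 108326 reads in the wild type against 123867 and 111633 in the mutant, or 4037, 2996, 3506 and 2863 CPM. The groups overlapped, with the highest value in wild type replicate 1 and the lowest in mutant replicate 2 (log2 fold change, mutant over wild type, -0.14, SE 0.20). Without wild type replicate 1 the sign was the other way, at 0.10. Per kilobase of annotated exon, LTP2 ranked first of 32548 genes in both wild-type libraries and in mutant replicate 1, and it ranked 3 in mutant replicate 2. RefSeq describes LTP2 as absent from roots.

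LTP1 (AT2G38540, chr2:16130290-16131240), which lies 890 bases downstream of LTP2 on the same strand, had 1452 and 1459 CPM in the wild type against 1928 and 2134 CPM in the mutant. Both mutant libraries lay above both wild-type libraries, by a modest margin (log2 fold change 0.48, SE 0.10). It ranked between 4 and 7 per kilobase in the 4 libraries. The level of LTP1 relative to LTP2, per kilobase, was 0.481 and 0.651 in the wild type against 0.736 and 0.997 in the mutant.

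LTP3 (AT5G59320, chr5:23928954-23929816) had 28826 and 30358 reads in the wild type against 69944 and 53582 in the mutant, or 948, 839.6, 1979 and 1374 CPM. The mutant libraries were higher and also further apart from each other (log2 fold change 0.91, SE 0.20). Its rank per kilobase was 15 and 19 in the wild type against 3 and 9 in the mutant. LTP3 held 14.7% and 15.8% of the reads of the 7 genes in the wild type against 26.6% and 21.4% in the mutant, while the share of LTP2 was 62.6% and 56.5% against 47.1% and 44.6%. Neither share overlapped between genotypes, and shares of 1 total are bound to move against each other.

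**Figure D2:**
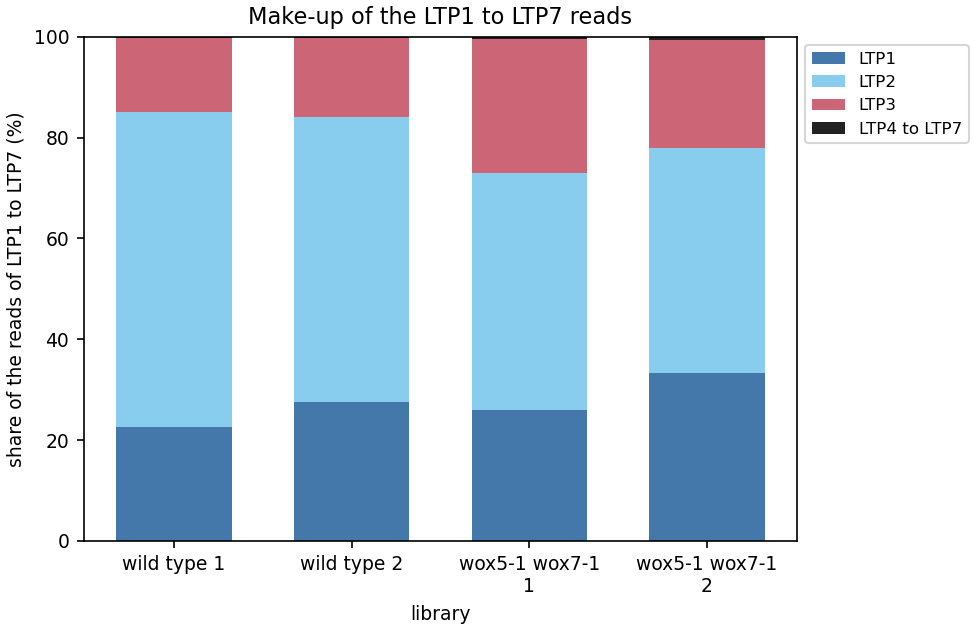
Share of each gene in the reads of LTP1 to LTP7 (percent, stacked to 100) in the 4 libraries, 2 per genotype. LTP3 takes 14.7% and 15.8% in the wild type against 26.6% and 21.4% in the mutant, and LTP4 to LTP7 form a thin band at the top.

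LTP5 (AT3G51600, chr3:19138338-19139423, minus strand, 2 exons) had 48 and 22 reads in the wild type against 650 and 1358 in the mutant. On the CPM scale these were 1.58 and 0.608 against 18.4 and 34.8, with a mean of 1.09 ± 0.686 (SD, n = 2) for the wild-type libraries and 26.6 ± 11.6 (SD, n = 2) in the mutant. The lowest mutant library was far above the highest wild-type library, although the libraries of a genotype differed 2.59-fold (wild type) and 1.89-fold (mutant). The log2 fold change was 4.62 (SE 0.58), a 24.7-fold higher level, and the ratio of the scaled read totals was 25.7 (exact 95% interval 20.2 to 33.1, which covers counting error only). Without wild type replicate 1, the library with more LTP5 reads of its genotype, the log2 fold change was 5.45, and over all alternatives it lay between 4.07 and 5.45. Per kilobase, LTP5 ranked 15719 and 17332 of 32548 genes in the wild type against 6620 and 3613 in the mutant, which is far below LTP1 to LTP3 in every library. In the mutant it took 0.247% and 0.543% of the reads of the 7 genes.

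LTP4 (AT5G59310, chr5:23924990-23925957, minus strand) had 4 and 5 reads in the wild type against 74 and 83 in the mutant. Levels were 0.132 and 0.138 CPM against 2.09 and 2.13 CPM, so that replicates lay close together and the genotypes far apart. The log2 fold change was 3.93 (SE 0.39), and the ratio of the scaled read totals was 15.6 (exact 95% interval 8.02 to 34.8, counting error only). LTP4 passed the filter on low counts only through the mutant libraries, so it had to differ. The members were chosen on this contrast, so the intervals given for LTP4, LTP5 and LTP7 are no test of a difference. With the values as deposited its log2 fold change was 2.52, because a constant in every value shrinks the fold of a gene with few reads. LTP4 counted 0.139 and 0.165 reads per 1000 reads of its near copy LTP3 in the wild type against 1.06 and 1.55 in the mutant. Whether reads of LTP3 were counted as LTP4 was not tested.

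LTP6 (AT3G08770, chr3:2664069-2664888, minus strand) had lower values in the mutant. It had 416 and 420 reads in the wild type against 62 and 199 in the mutant, or 13.7, 11.6, 1.75 and 5.10 CPM. Both mutant libraries lay below both wild-type libraries, but they differed 2.91-fold from each other (log2 fold change -1.88, SE 0.53), and without mutant replicate 2 the log2 fold change was -2.84. Its rank per kilobase was 6533 and 7510 in the wild type against 15075 and 12069 in the mutant. Per kilobase, LTP5 stood at 0.0856 and 0.0388 times the level of LTP6 among wild-type libraries and, in the mutant, at 7.77 and 5.06 times its level, so the order of these genes was opposite in the 2 genotypes.

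LTP7 (AT2G15050, chr2:6518749-6521549) was barely detected. It had 20 and 7 reads in the wild type against 3 and 4 in the mutant, and it did not pass the filter of the main fit. The 6 alternatives that fitted LTP7 gave log2 fold changes from -2.76 to -0.88. Its scaled read total was 4.31 times higher in the wild type (exact 95% interval 1.83 to 11.7, counting error only). The wild-type libraries differed 3.40-fold from each other, and 3 reads correspond to 0.0750 to 0.0999 CPM at these depths. The annotated exons of LTP7 span 2801 bases and include those of a transcript that retains an intron. Its transcript of 2 exons has 2169 bases, of which 1661 follow the coding sequence. This length lowers the level of LTP7 per kilobase.

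**Figure D3:**
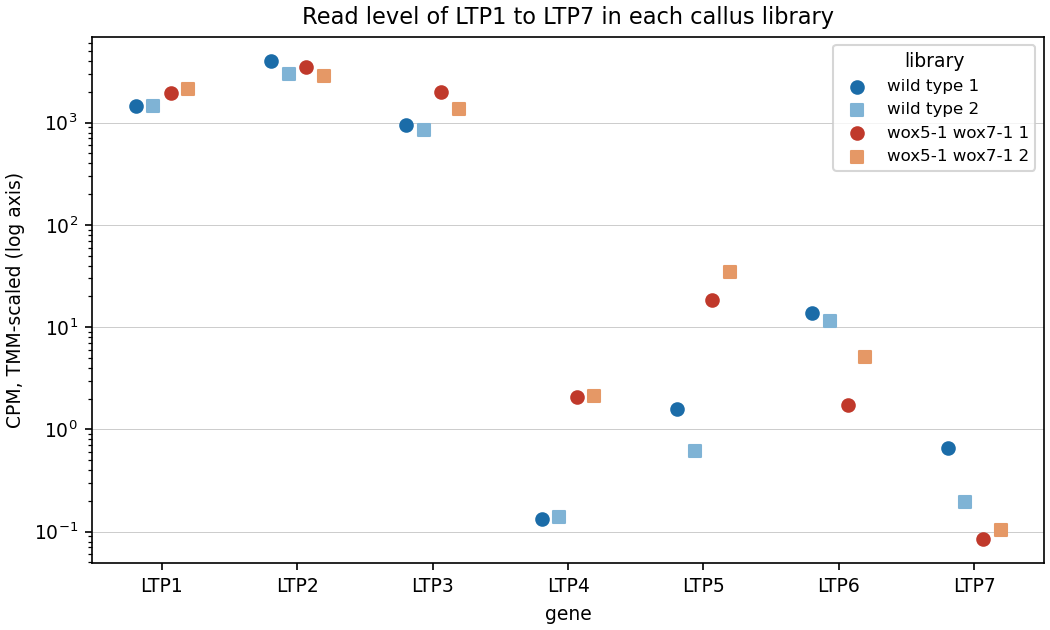
TMM-scaled CPM (log axis) of LTP1 to LTP7 in each of the 4 libraries, blue for the wild type and red or orange for the mutant, circles for replicate 1 and squares for replicate 2. LTP4 and LTP5 lie far higher in both mutant libraries, LTP6 and LTP7 lie lower, and LTP1 to LTP3 stay between 839.6 and 4037 CPM.

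Of the 7 genes, 6 passed the filter, and the 2 genotypes did not overlap in 5 of these 6, where 64.4% of all tested genes did not overlap either. In the fit over all genes, 2 of the 6 (LTP4 and LTP5) were past the threshold upward, beside 6.06% of all tested genes, and 0 downward, beside 5.81%. The other 4, LTP1, LTP2, LTP3 and LTP6, were not past it. The genes were chosen by this contrast, so nothing is read from these counts, which ranged from 0 to 4 upward and from 0 to 1 downward over the alternatives. The median log2 fold change was 0.69 over the 6 and close to 0 over all tested genes. When either wild-type library was left out, edgeR called 0 genes of the whole table (3428 and 3346 at an unadjusted p below 0.05), and without mutant replicate 2 it called 1198, so every call in the following paragraphs depends on having both wild-type libraries.

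The direct neighbours of the 7 genes on the chromosomes include other lipid transfer genes. AT5G59330 starts 1497 bases beyond LTP3 and is annotated as a member of the bifunctional inhibitor and lipid-transfer superfamily. Its deduced protein of 87 residues was 62.8% identical to LTP3 and 60.9% to LTP4. It had 122 and 158 reads in the wild type against 768 and 712 in the mutant, 4.01 and 4.37 against 21.7 and 18.3 CPM, and it rose (log2 fold change 2.25 ± 0.15 SE, edgeR adjusted p = 0.0135). At the LTP5 locus, LTP12, a gene of the anther tapetum that lies 1662 bases away, had 0 reads in all 4 libraries. NPU (AT3G51610) ends 54 bases upstream of LTP5 on the same strand. It had 33.7 and 35.2 CPM in the wild type against 40.5 and 38.9 CPM in the mutant (mean log2 difference 0.20 ± 0.08 SE, adjusted p = 0.164). No annotated gene overlapped a member. Of the other direct neighbours, AT2G38510, AT2G38550, AT3G08760, AT3G08780 and AT2G15042 were tested and not called, and AT5G59305 and RLP19 had 0 reads.

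The wider lipid transfer family was described by 3 lists of 47 genes outside LTP1 to LTP7 and AT5G59330, of which 27 had reads and 16 were tested. These lists were chosen with earlier results of these data known, so the shares called in them are descriptions. Of the 16, 6 rose, 1 fell and 9 did not pass the test (43.8% called, beside 11.9% of all tested genes, and a median log2 fold change of 0.17). Without mutant replicate 2 the count was 4 of 16, and without either wild-type library it was 0 (8 at an unadjusted p below 0.05 in each case). In the type 1 list, which is the class of LTP1 to LTP7, 4 of 8 genes had no read and 2 were tested. LTP8 (AT2G18370) rose from 5.13 and 4.23 CPM to 13.7 and 10.6 CPM (log2 fold change 1.38 ± 0.21 SE, edgeR adjusted p = 0.0312). LTP10 (AT5G01870) had 1420 and 1273 CPM in the wild type against 1824 and 2395 CPM in the mutant, and it did not pass the test (log2 change 0.65 ± 0.17 SE, adjusted p = 0.0750). It was called by DESeq2 (adjusted p = 0.000373) and by edgeR without mutant replicate 1 (adjusted p = 0.0286), and its adjusted p lay between 0.000373 and 0.34 over all alternatives.

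Among 10 tested genes of GPI-anchored lipid transfer proteins, which sit on the outer face of the plasma membrane, 4 rose and 1 fell. Of all tested genes, 11.9% were called, with 6.06% up and 5.81% down. LTPG6 (AT1G55260) fell from 88.4 and 76.6 CPM to 13.4 and 16.4 CPM (log2 fold change -2.46 ± 0.14 SE, edgeR adjusted p = 0.0118). EDA4 (AT2G48140) rose from 0.723 and 0.581 CPM to 3.25 and 3.41 CPM (log2 change 2.35 ± 0.30 SE, adjusted p = 0.0250). AT2G48130 rose from 0.625 and 0.636 CPM to 2.52 and 3.69 CPM (log2 change 2.29 ± 0.35 SE, adjusted p = 0.0322). LTPG5 rose from 2.60 and 2.68 CPM to 10.4 and 27.7 CPM, by 2.85 on the log2 scale and by 1.98 without mutant replicate 2, and AT3G22620 rose by 2.29 (adjusted p = 0.0425 and 0.0334). Limma-voom called neither LTPG5 nor AT3G22620. LTPG1, which carries lipids of the cuticle, had 370 and 428 CPM in the wild type against 296 and 375 CPM in the mutant and did not pass the test (adjusted p = 0.317). Without mutant replicate 2, LTPG5 rose and LTPG6 fell, and the calls of EDA4, AT2G48130 and AT3G22620 were lost. In the list of type 2, DIR1-like and hybrid proline-rich genes, 4 of 27 were tested. Of these 4, 1 rose and 0 fell, beside the same 11.9% of all tested genes called. The gene that rose was AT3G18280, from 37.7 and 50.4 CPM to 183 and 153 CPM (log2 change 1.93 ± 0.18 SE, edgeR adjusted p = 0.0177).

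**Figure D4:**
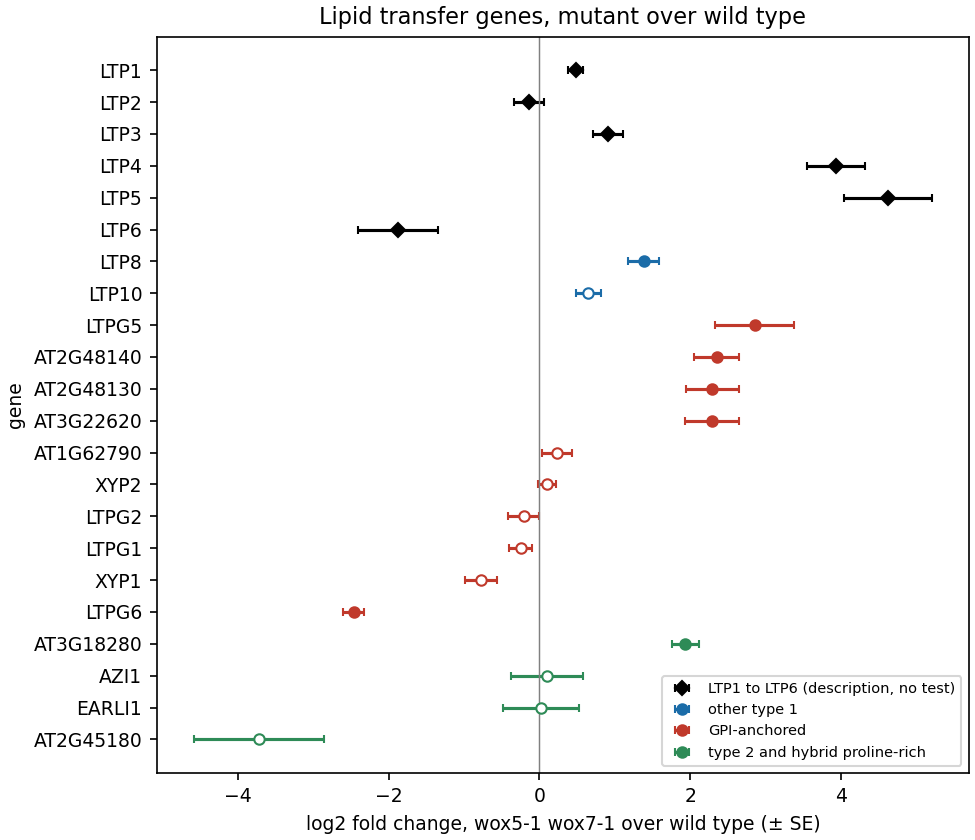
Log2 fold change of the mutant over the wild type (x axis, bars are SE) for the 6 fitted genes of LTP1 to LTP7 (black diamonds, no test) and for the 16 tested genes of the other 3 lipid transfer lists (circles, filled where edgeR called them). LTP5 and LTP4 lie furthest to the right at 4.62 and 3.93, and both directions occur among the GPI-anchored genes.

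Lipid transfer proteins are best known from the lipid barriers of the plant, the cuticle of the epidermis and the suberin of inner and wounded tissues. Of 24 tested genes of cutin and wax synthesis and export, 1 rose, 2 fell and 21 did not pass the test (12.5% called, beside 11.9% of all tested genes, with 6.06% up and 5.81% down). DESeq2 called 4 up and 8 down in this list. CER1, which makes wax alkanes, rose from 0.526 and 0.525 CPM to 13.4 and 3.77 CPM (log2 fold change 4.02, edgeR adjusted p = 0.0420). Its value was 2.83 without mutant replicate 1 and 4.67 without mutant replicate 2, and limma-voom did not call it. CER2, a factor in wax chain elongation, fell from 248 and 362 reads to 28 and 73 (-2.76, adjusted p = 0.0366), and its value was -3.51 without mutant replicate 2. Of 15 tested genes of suberin synthesis and its regulators, 8 rose, 0 fell and 7 did not pass the test (53.3% called, beside the same 11.9%). The lists of this and the next paragraph were also chosen with earlier results of these data known, so their shares are descriptions. Without mutant replicate 2, 4 rose, with limma-voom 5 rose, and with upper-quartile scaling 7 rose and 1 fell. The suberin regulator MYB92 rose from 37 and 43 reads to 4267 and 4840 (6.67, adjusted p = 0.00073), and its relative MYB93 rose from 27 and 34 to 226 and 375 (3.13, adjusted p = 0.0181). Among 8 tested cuticle regulators, 1 rose and 2 fell (37.5% called, beside 11.9%), and 0 rose and 2 fell without mutant replicate 2. The regulator that rose was MYB94, from 208 and 208 CPM to 284 and 303 CPM (0.50, edgeR adjusted p = 0.0323). MYB96, an activator of wax genes and of LTP3, fell from 88.7 and 90.6 CPM to 20.7 and 28.3 CPM (-1.87, adjusted p = 0.0176). AT2G33510 fell by 1.27 on the log2 scale (adjusted p = 0.0220). LTP3 had higher values in both mutant libraries, and a link between these regulators and LTP3 in the calli was not tested. Of 8 tested abscisic acid response genes, 1 rose and 2 fell (37.5% called, beside 11.9%). Without mutant replicate 1, 3 rose and 1 fell of 10 tested, without mutant replicate 2, 1 rose and 0 fell, and DESeq2 called 3 in each direction, so the balance of this list depended on the libraries and the tool. KIN1 fell from 12.2 and 36.8 CPM to 3.4 and 2.13 CPM (-3.15, edgeR adjusted p = 0.048). HAI1, a phosphatase of abscisic acid signalling, rose (2.47, adjusted p = 0.0322) and ABI5, a transcription factor of the same pathway, fell (-0.53, adjusted p = 0.0416). Both calls were lost without mutant replicate 2, and the value of HAI1 was 3.12 without wild type replicate 1.

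Epidermis markers bear on LTP1, itself a gene of the epidermal layer, and all 9 had reads in every library. In edgeR 0 rose and 4 of 9 fell (44.4% called, beside 11.9% of all tested genes, with 5.81% down), 5 fell when either mutant library was left out, and DESeq2 called 1 up and 5 down. Their summed level was 1492 and 1627 CPM in the wild type against 836 and 1094 CPM in the mutant. Most of this difference was PDF1, with 633 and 748 CPM against 131 and 337 CPM, which did not pass the test (edgeR adjusted p = 0.0992). ACR4, an epidermal receptor kinase, fell by 0.71 and ANL2, an epidermal homeobox factor, fell by 1.71 on the log2 scale (edgeR adjusted p = 0.0232 and 0.0253). Not all markers had lower values. HDG2 had 20 and 22 reads in the wild type against 53 and 87 in the mutant, a log2 fold change of 1.56. FDH and HDG11 had log2 fold changes of 0.21 and 0.04, and these 3 did not pass the test. Of 9 callus and founder cell markers, 3 rose and 2 fell. Among those that rose were WOX11 at 1.84 and LBD17 at 1.93 (edgeR adjusted p = 0.0135 and 0.0144). Those that fell were SCR at -0.73 and PLT2 at -0.36 (adjusted p = 0.0223 and 0.0454). Of 7 tested xylem vessel markers, 2 rose (XCP1 at 3.40 and LAC4 at 2.67, adjusted p = 0.0335 and 0.0421), and the summed level of the list was 12.3 and 10.8 CPM against 28.0 and 18.2 CPM. DESeq2 called 5 of the xylem list up and limma-voom 1. Both calls were lost without mutant replicate 1, and the value of XCP1 was 4.14 without wild type replicate 1. Of 5 tested root cap markers, SMB rose by 3.82 and FEZ fell by 1.41 (edgeR adjusted p = 0.0135 and 0.0277), and the call of FEZ was lost without mutant replicate 2. The summed level of the root cap list was 61.0 and 67.8 CPM against 132 and 163 CPM. SMB alone had 7.76 and 4.73 CPM against 85.8 and 89.4 CPM of these sums, so their rise was mostly that of SMB. Of 3 tested leaf mesophyll markers none was called, with CAB3 at 2.02 (edgeR adjusted p = 0.116). The shares called were 55.6% (callus and founder cell), 28.6% (xylem vessel) and 40.0% (root cap), beside 11.9% of all tested genes. The part of these cell types in the values of LTP1 to LTP7 was not tested.

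The genes whose pattern over the 4 libraries was most like that of LTP5 were ACT12, AT1G30190, AT5G67430, AT5G46490 and AT1G76610. Likeness was the root mean square difference of log2 CPM centred on each gene's mean, over 4 libraries and among 15073 genes with an average log2 CPM of at least 2, where the median gene differed by 2.38 from LTP5. ACT12, an actin gene of reproductive tissues, differed by 0.121 and had 30 and 12 reads in the wild type against 328 and 803 in the mutant. AT1G30190 differed by 0.313, AT5G67430 by 0.335, AT5G46490 by 0.356 and AT1G76610 by 0.392. LTP5, ACT12, AT1G30190, AT5G67430 and AT5G46490 had their highest value in mutant replicate 2 and their lowest in wild type replicate 2, whereas AT1G76610 was nearly level between the mutant libraries, at 11.7 and 12.3 CPM. These genes were chosen for the same contrast as LTP5, and their values are a description.

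**Figure D5:**
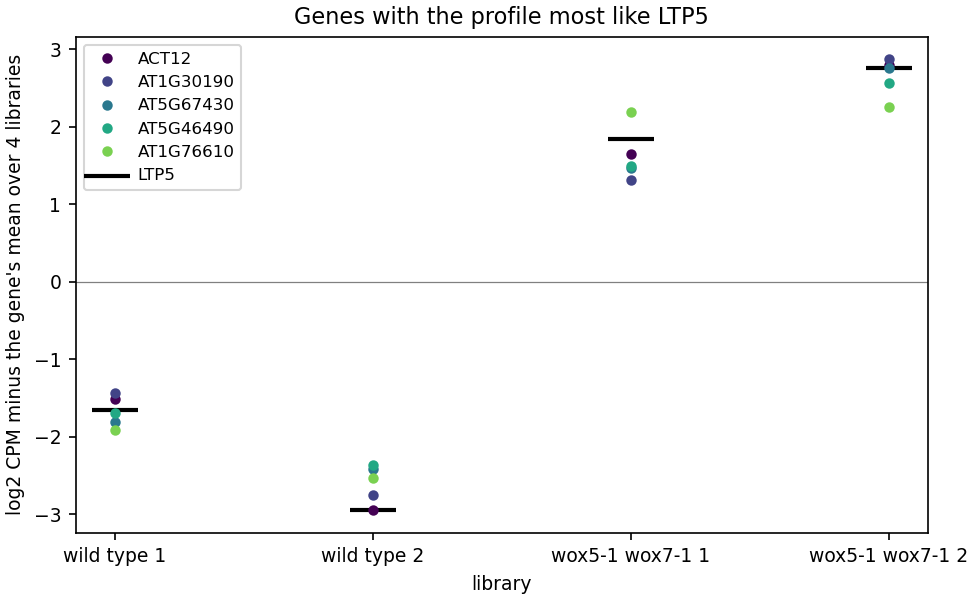
Log2 CPM minus the gene's mean over the 4 libraries (y axis) in each library (x axis), for LTP5 (black bars) and the 5 genes with the most similar profile (coloured points). LTP5 lies at -1.65 and -2.95 in the wild type against 1.84 and 2.76 in the mutant, and ACT12 lies at -1.51, -2.94, 1.65 and 2.80.

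The 250 bases before each annotated start were searched on both strands for the abscisic acid response element core ACGTG and for the L1 box TAAATGCA, the motif of epidermal homeobox factors. The core was found in 1 of the 7 windows, 74 bases before the start of LTP2, and in 22.9% of 27443 windows of protein-coding genes. The L1 box was found in 0 of the 7 and in 1.57% of all windows. A match is a description of the letters in these windows. Upstream of LTP5, the window reaches into the annotated end of NPU.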

How the data were processed

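STAR 2.7.2b, Trim Galore 0.5.0, the build TAIR10 and DESeq2 are named, with no role given, per the submitters' processing notes. The sources used here name neither the counting tool nor the strand setting. Values as deposited are whole read counts of each gene, and the lowest is 10 in every library. A constant of 10 was inferred to have been added and was subtracted. The inference rests on the values alone.

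edgeR 4.0.16 in R 4.3.3 was run on all 4 libraries with filterByExpr, TMM scaling and the two-sided quasi-likelihood test, without covariates, and p-values were adjusted by Benjamini and Hochberg's method over all genes in the test. The SE is the size of the log2 fold change over the square root of F. The depth was 30041268 to 40008661 assigned reads, at which 3 reads give 0.0750 to 0.0999 CPM. The procedure was run on simulated data with a smaller spread between libraries than the one fitted here. Error control at the spread of these data was therefore not tested. As alternatives, upper-quartile or RLE scaling was used, the filter was dropped or set to a CPM of at least 1 in 2 libraries, the deposited values were tested without the subtraction (with a loess dispersion trend), DESeq2 1.42.0 or limma-voom (limma 3.58.1) replaced edgeR, a replicate block was added and each library was left out.

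Gene models, sequences and notes came from RefSeq for TAIR10.1, which held all 7 loci. LTP1 is listed there as LP1 and LTP7 as LTP. Proteins were aligned with Biopython 1.88. LTP1 to LTP7 and the 12 gene lists were chosen with earlier results of these data known. Besides LTP1 to LTP7, WOX5 and WOX7, the genes named were the called genes with the smallest p (up to 3 per lipid transfer list and up to 2 per other list, or 1 where none was called), the 5 genes nearest to LTP5 in profile and the direct neighbours. LTPG5, AT3G22620, LTPG1, LTP10, HDG2, FDH, HDG11, PDF1, MYB94, KIN1, SCR and PLT2 were added after their values were seen.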

Additional observations from a re-analysis of the deposited data

How the results depend on the processing

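The number of genes called was 2223. It was 3416 with the values as deposited, 3936 with DESeq2 and 4750 with the replicate block, and with the values as deposited 66.9% of calls were upward, against 51.1%. Leaving out 1 library gave 0 to 2493 calls. The 0 came from leaving out either wild-type library, where the single wild-type library left is assumed to vary like the mutant and 3428 and 3346 genes had an unadjusted p below 0.05 in edgeR. The cause was not tested. Of the 16 lipid transfer genes tested outside LTP1 to LTP7, 7 were called, and with 1 library left out 0 to 9 of 16 or 17 tested were called. The log2 fold change of LTP5 lay between 4.07 and 5.45 with 1 library left out and between 4.38 and 4.72 under the other alternatives. LTP1, LTP3 and LTP4 stayed positive and LTP6 negative in all 12 alternatives, and LTP2 ranged from -0.35 to 0.10. The 31 other named genes that were called kept their direction in all 12 alternatives, with 8 calls lost in limma-voom, 9 without mutant replicate 2, 3 without mutant replicate 1 and all 31 without either wild-type library. These 31 leave out MYB94, KIN1, SCR and PLT2, whose calls were not followed gene by gene over the alternatives. With the replicate block, 3 cutin and wax genes were called up and 9 down, 1 epidermis marker up and 6 down, and LTP10 up (edgeR adjusted p = 0.0423). Same-numbered libraries of the 2 genotypes deviated together (correlation 0.555 over genes), but 2 pairs do not show that the replicate numbers pair the libraries. Depth limits LTP7 and the wild-type values of LTP4, which rest on few reads.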
